A study of Oryctolagus cuniculus with 4 samples.

Results

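Immediate early genes are the first genes that a cell transcribes when a growth factor, a wound or a stress reaches it, since the proteins that switch them on are already in place. FOS and JUN family proteins pair through leucine zippers to form the AP-1 transcription factors, and EGR1 is a zinc finger factor that is induced beside them through the MAP kinase pathway. In skin, AP-1 and EGR1 are known from wound repair, keratinocyte differentiation and fibrosis, and the same genes are known to respond while tissue is being dissociated into cells. A list of 10 such genes (FOS, FOSB, FOSL2, JUN, JUNB, ATF3, EGR1, IER2, ZFP36 and DUSP1) was looked up by symbol in a table of 13913 genes. The rows of 6 were found and are described here, namely FOS, FOSL2, JUN, ATF3, EGR1 and DUSP1. FOSB, JUNB, IER2 and ZFP36 were not analysed here. All 6 passed the filter on low values, which kept 9348 genes.

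The libraries were single-cell libraries made by the 10x Genomics droplet protocol out of hypertrophic scar (HS) on the ears of female wild-type rabbits, in which scars had been raised by removing round pieces of ventral skin. The labels gave 2 groups of 2 libraries. The scars of the HS group received no treatment, and those of the drug-loaded MNs group received patches of microneedles (MNs) carrying a prodrug of a 5-fluorouracil derivative, 1 patch a week for 3 weeks, with harvest 1 week after the last patch. Each library came from 1 scar tissue, of which the ventral epidermis and dermis were used, and the study calls the tissues biologically independent without saying whether they came from different rabbits, so p-values measure the spread between these libraries only. Libraries with drug-free MNs were not analysed here, so the needles and the drug cannot be told apart.

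The table held 1 value per gene and library. Values are given as relative expression, where 1 unit is 1 part in 1000000 of a library's total, and depth was unknown. A level averaged over a whole library does not tell fewer cells of a type from less RNA per cell. Defining markers of the labelled tissue were present in all 4 libraries. Summed over 4 suprabasal keratinocyte markers, the level was 36820 and 52320 units in HS and 31360 and 41240 with drug-loaded MNs, and over 6 fibroblast markers it was 22530 to 23000 units in HS and 44680 to 48620 with drug-loaded MNs. Mitochondrially encoded genes took between 2.75% and 2.80% of the total in HS and between 4.37% and 4.58% with drug-loaded MNs.

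To examine whether drug-loaded MNs altered the early response program in scar tissue, the 6 genes were compared between the groups. All 6 had a lower mean in drug-loaded MNs on the log2 scale, by 0.087 to 0.50, but none passed the threshold. In limma, 0 of the 6 had an adjusted p under 0.05, against 0.0428% of all tested genes. At an unadjusted p under 0.05 there were also 0 of 6, against 7.26% of all tested genes that were higher and 1.39% that were lower. Only DUSP1, 1 of the 6, had groups without overlap, and it was lower, against 11.2% of all tested genes lower without overlap and 26.6% higher without overlap. A log2 fold change below 0 was found in 6 of 6, against 35.4% of all tested genes. The median log2 fold change was -0.16 over the 6 genes and 0.12 over all tested genes.

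Each of the 6 genes had its highest level in HS replicate 2, where 24.2% of all tested genes had theirs. Summed over the 6 genes, expression was 13160 units in HS replicate 1, 20250 in HS replicate 2, 12950 in drug-loaded MNs replicate 1 and 13730 in drug-loaded MNs replicate 2. HS replicate 1 thus lay between the drug-loaded MNs libraries, and HS replicate 2 exceeded the other libraries by 47.5% to 56.5%. As groups, the sums were 16700 ± 5019 units in HS and 13340 ± 555.9 with drug-loaded MNs (SD, n = 2 each), a difference smaller than the SD of the HS group. Without HS replicate 2 the median log2 fold change of the 6 genes was 0.097, and without HS replicate 1 it was -0.61. JUN and DUSP1 kept their direction without HS replicate 2, and the other 4 genes turned. Each of those 4 also turned, to at most 0.11, when 1 of the drug-loaded MNs libraries was left out.

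**Figure D1:**
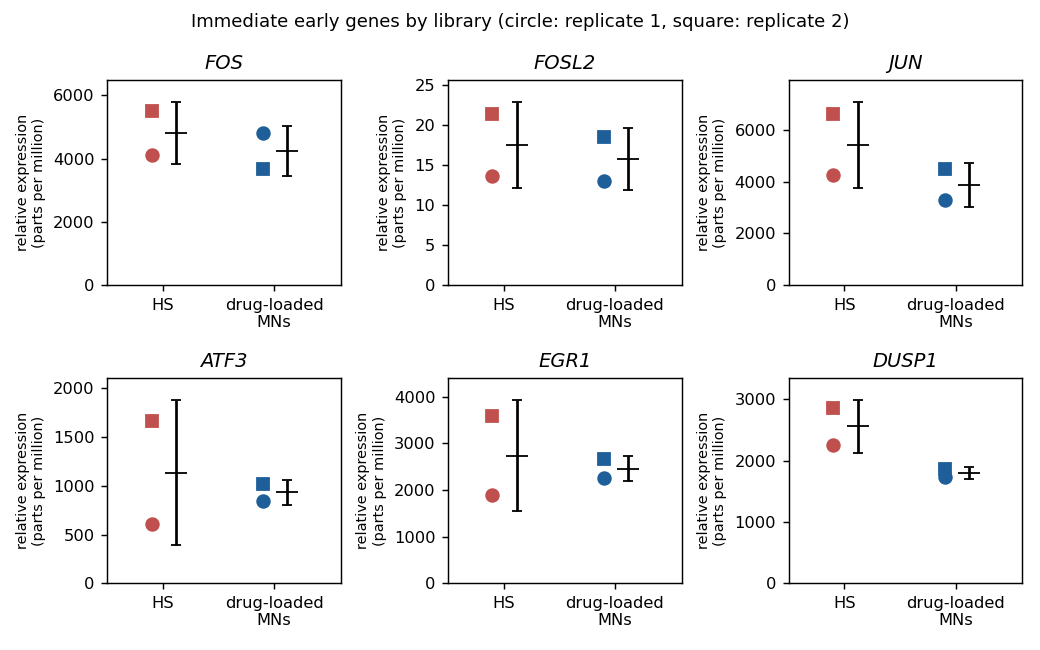
Relative expression (units as defined above, linear axis from 0) of the 6 immediate early genes in each library, with circles for replicate 1 and squares for replicate 2 of HS and drug-loaded MNs, and the mean ± SD (n = 2 each) in black. HS replicate 2 is the highest library in every panel, and only in DUSP1 do both HS libraries lie above both drug-loaded MNs libraries.

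FOS encodes the founding member of the Fos family, which cannot pair with itself and needs a Jun partner. Its expression was 4128 and 5514 units in the HS libraries and 4803 and 3673 units in the drug-loaded MNs libraries. The groups overlapped, with the highest level in HS replicate 2 and the lowest in drug-loaded MNs replicate 2. FOS was the only one of the 6 genes that was lower in replicate 2 than in replicate 1 of drug-loaded MNs. The log2 fold change was -0.18 (SE 0.29, 95% interval -0.85 to 0.49, limma adjusted p 0.911). It was 0.025 without HS replicate 2, 0.0096 without drug-loaded MNs replicate 2, -0.39 without HS replicate 1 and -0.38 when drug-loaded MNs replicate 1 was left out.

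FOSL2 encodes Fra-2, a Fos family member that is typically induced later than FOS. Its expression was 13.7 and 21.3 units in the HS libraries and 13.0 and 18.4 units in the drug-loaded MNs libraries. In both groups replicate 2 was above replicate 1, and the groups overlapped over most of their range. The log2 fold change was -0.13 (SE 0.32, 95% interval -0.88 to 0.61, limma adjusted p 0.943). It was 0.17 without HS replicate 2, 0.11 without drug-loaded MNs replicate 1, -0.44 without HS replicate 1 and -0.37 when drug-loaded MNs replicate 2 was left out.

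JUN encodes c-Jun, the partner that Fos proteins need and that can also pair with itself. Its expression was 4251 and 6615 units in the HS libraries and 3290 and 4495 units in the drug-loaded MNs libraries. HS replicate 1 lay below drug-loaded MNs replicate 2, so the groups overlapped. The log2 fold change was -0.46 (SE 0.32, 95% interval -1.21 to 0.28, limma adjusted p 0.772), and 4.32% of all tested genes had a lower one. The direction held without each library in turn, but the size did not, as the value was -0.14 without HS replicate 2, -0.24 without drug-loaded MNs replicate 1, -0.69 without drug-loaded MNs replicate 2 and -0.78 without HS replicate 1.

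ATF3 encodes a stress-induced factor of the ATF family, which pairs with Jun proteins. Of the 6 genes it varied most between the HS libraries on the log2 scale, with levels of 607.9 and 1660 units. The drug-loaded MNs libraries stood between them, at 842.4 and 1022 units. The HS libraries lay 1.45 apart on the log2 scale, and the log2 fold change between groups was -0.11 (SE 0.44, 95% interval -1.14 to 0.91, limma adjusted p 0.968). The direction depended on which HS library was left out. It was 0.61 without HS replicate 2 and -0.84 without HS replicate 1. With drug-loaded MNs replicate 1 left out it was 0.025, and with drug-loaded MNs replicate 2 left out -0.25.

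EGR1 encodes a zinc finger factor with GC-rich binding sites that is induced through serum response factor. Its levels followed the order seen for ATF3, with HS libraries at 1897 and 3580 units and drug-loaded MNs libraries at 2266 and 2657 units between them. The HS libraries lay 0.92 apart on the log2 scale. The log2 fold change between groups was -0.087 (SE 0.34, 95% interval -0.87 to 0.70, limma adjusted p 0.968). It was 0.37 without HS replicate 2, 0.028 without drug-loaded MNs replicate 1, -0.54 without HS replicate 1 and -0.20 when drug-loaded MNs replicate 2 was left out.

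DUSP1 encodes a nuclear phosphatase that removes the activating phosphates from MAP kinases, so that it acts as a brake on the pathway that induces it. Its expression was 2258 and 2863 units in the HS libraries and 1732 and 1866 units in the drug-loaded MNs libraries. Both HS libraries were above both drug-loaded MNs libraries, and the group means were 2561 ± 427.7 and 1799 ± 95.3 units (SD, n = 2 each). On the log2 scale the difference was -0.50 (SE 0.25, 95% interval -1.08 to 0.076), a level 0.707 times that of HS, with a limma unadjusted p of 0.0799 and an adjusted p of 0.673. Of all tested genes, 3.63% had a lower log2 fold change. Leaving out HS replicate 1 gave -0.67 and leaving out HS replicate 2 gave -0.33, with the values for the other omissions in between.

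**Figure D2:**
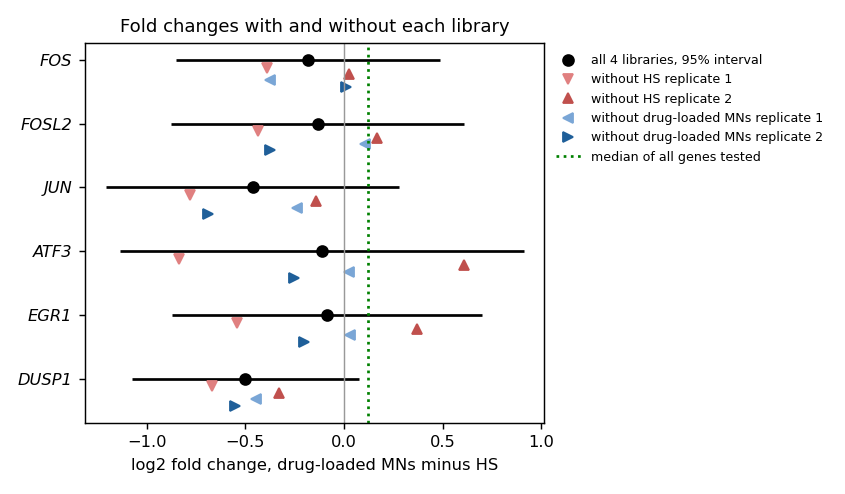
Log2 fold change of drug-loaded MNs over HS (x axis) for the 6 genes, with the value from all 4 libraries and its 95% limma interval in black, the value without each library as a coloured triangle, and the median of all tested genes (0.12) as a dotted line. All 6 intervals include 0, and leaving out HS replicate 2 moves FOS, FOSL2, ATF3 and EGR1 to the other side of 0.

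In most of these genes the replicates of a group were farther apart than the groups. The larger of the 2 gaps between replicates exceeded the group difference in 5 of 6 genes, DUSP1 being the exception, and in 75.5% of all tested genes. HS replicate 2 was above HS replicate 1 in 6 of 6 genes, where 59.7% of all tested genes had that order. The median of the absolute gap between the HS libraries was 0.62 on the log2 scale over the 6 genes and 0.33 over all tested genes. In drug-loaded MNs, replicate 2 was above replicate 1 in 5 of 6 genes, where 35.7% of all tested genes had that order, and the median absolute gaps were 0.33 and 0.23. The lowest library differed among the genes: it was HS replicate 1 for ATF3 and EGR1, drug-loaded MNs replicate 1 for FOSL2, JUN and DUSP1, and drug-loaded MNs replicate 2 for FOS. The suprabasal keratinocyte sum given above was also highest in HS replicate 2, where KRT10 made up 45330 of its 52320 units. DSG1 (2865 units) and DSC1 (1583 units) of the same list were also highest in HS replicate 2, while KRT1 was highest in drug-loaded MNs replicate 1 (3973 units). The sum of 4 basal keratinocyte markers was 8095 units in HS replicate 1 and 5578 in HS replicate 2, and 7485 and 3938 units with drug-loaded MNs. These markers were divided between the HS libraries. From HS replicate 1 to HS replicate 2, KRT5 (4485 and 3038 units) and KRT14 (3282 and 1874 units) were lower. TP63 (152.6 and 273.9 units) and COL17A1 (175.8 and 391.7 units) were higher. The part of these cells in the levels of the 6 genes was not tested. The fibroblast sum differed by less between the HS libraries (23000 and 22530 units).

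**Figure D3:**
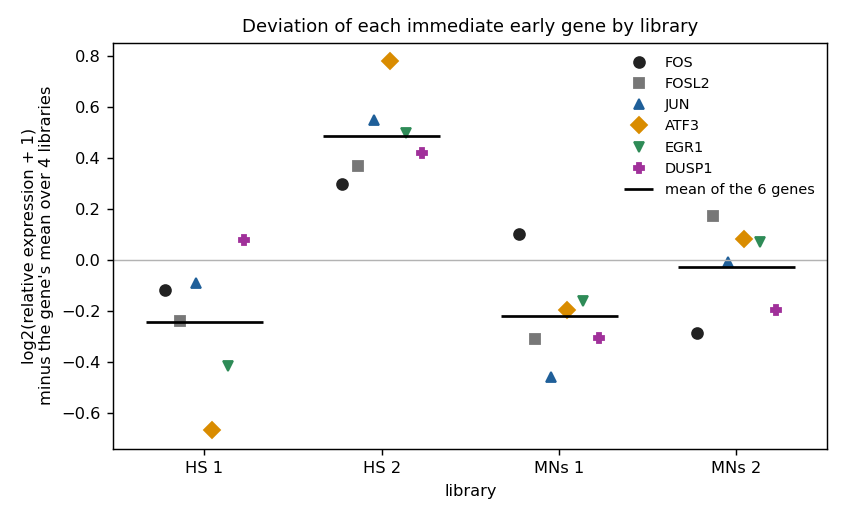
Each gene's log2(relative expression + 1) minus its own mean over the 4 libraries (y axis), by library (x axis), with a bar at the mean of the 6 genes. All 6 genes lie above 0 in HS replicate 2, where the mean is 0.49, and in no other library do they all lie on one side of 0.

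Log2 ratios between these genes were taken within each library as differences of log2(units + 1). Of the 15 pairs among the 6 genes, 5 had groups without overlap, against 39.3% of all pairs of tested genes. The steadiest was FOSL2 to JUN, singled out after the values were seen, with log2 ratios of -8.18 and -8.21 in HS and -7.88 and -7.85 with drug-loaded MNs, which differ by 0.33 between groups, where the pooled SD was 0.021. JUN to EGR1 stood at 1.16 and 0.89 in HS and 0.54 and 0.76 with drug-loaded MNs. FOS to JUN, the main AP-1 pair, stood at -0.042 and -0.26 in HS and 0.55 and -0.29 with drug-loaded MNs, so that drug-loaded MNs replicate 1 stood apart from the other 3 libraries. No test was made of these ratios.

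The genes most like the 6 in pattern were sought over the 4 libraries among 7784 other genes with a symbol. Of the 5 highest Pearson correlations with their mean profile, 4 were those of RAPGEFL1 (0.999), TRAK1 (0.999), CHD7 (0.999) and FBXW7 (0.999). RAPGEFL1, for instance, stood at 53.8 and 108.8 units in HS and at 56.0 and 65.5 units with drug-loaded MNs. These correlations rest on only 4 libraries that share their scaling, and 177 genes (2.27%) had one over 0.95. Of the 6 genes themselves, EGR1 (0.954), ATF3 (0.946), JUN (0.922) and FOSL2 (0.909) followed the mean profile more closely than DUSP1 (0.786) and FOS (0.616). The mean profile includes each of these genes, which raises their correlations with it, so they cannot be set beside those of the other genes.

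Related genes were examined in 7 lists that held 168 symbols, of which 97 were in the table and 95 were tested. In limma, 0 of the 95 passed an adjusted p of 0.05. At an unadjusted p under 0.05, 7 were lower in drug-loaded MNs and 2 were higher, against 1.39% lower and 7.26% higher of all tested genes. The log2 fold change was below 0 in 58 of 95 (61.1%), against 35.4% of all tested genes. Without overlap between the groups were 26 lower genes (27.4%) and 14 higher genes (14.7%), which can be read beside the percentages for all tested genes given above.

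Among 14 tested AP-1 and bZIP partners the median log2 fold change was -0.095, with 5 genes higher and 9 lower. FOSL1, which encodes the Fos family member Fra-1, was at 71.8 and 55.4 units in HS and 22.8 and 42.8 with drug-loaded MNs. The groups did not overlap, and the log2 fold change was -0.99 (SE 0.33, limma unadjusted p 0.0189, adjusted p 0.431). MAFF, a small Maf protein without a transactivation domain, was lower by a log2 fold change of -0.57 (adjusted p 0.549 in limma), and CEBPG, which pairs with other bZIP factors, by -0.39 (adjusted p 0.709 in limma), both without overlap. BATF, a partner of Jun in lymphocytes, was at 13.2 and 7.26 units in HS and 11.8 and 24.9 with drug-loaded MNs, with overlap. The list median became 0.020 on leaving out HS replicate 2 and 0.046 on leaving out drug-loaded MNs replicate 2.

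Of 19 tested genes among the other immediate early transcription factors, 14 had a log2 fold change below 0, with a median of -0.40. Without overlap, 8 were lower and 3 higher, beside 11.2% lower and 26.6% higher over all tested genes. HES1, a repressor downstream of Notch, was at 445.3 and 613.5 units in HS and 253.2 and 242.9 with drug-loaded MNs. Its log2 fold change was -1.07 (SE 0.24, limma unadjusted p 0.0024, adjusted p 0.314). TSC22D3, the glucocorticoid-induced leucine zipper gene, was at 221.1 and 209.9 units in HS and 142.0 and 146.9 with drug-loaded MNs, a log2 fold change of -0.57 (adjusted p 0.472 in limma). MYC, a driver of cell growth, was at 389.0 and 476.6 units in HS and 254.8 and 306.1 with drug-loaded MNs, a log2 fold change of -0.62 (adjusted p 0.485 in limma). IRF1, an interferon-induced factor, had a log2 fold change of -0.58 (adjusted p 0.513 in limma). In these 4 genes the direction held without each library in turn, and the list median stayed between -0.39, on leaving out HS replicate 1, and -0.22, on leaving out drug-loaded MNs replicate 1. The NR4A and EGR relatives were divided. EGR2, NR4A2 and NR4A3 were the 3 genes higher without overlap, at log2 fold changes of 0.44, 0.39 and 0.39, and none of them had an unadjusted p under 0.05 in limma. The gap was narrow for EGR2 (37.5 units in HS replicate 2, 37.9 in drug-loaded MNs replicate 2). It was also narrow for NR4A3 (40.1 units in HS replicate 1, 41.9 in drug-loaded MNs replicate 1). NR4A1 and EGR4 had log2 fold changes of -0.58 and -0.49, both with overlap. EGR4 was near the filter on low values, at 2.922 and 2.444 units in HS and 0.908 and 2.575 with drug-loaded MNs.

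Over 20 other early response effectors the median was -0.10, 7 higher and 13 lower. HBEGF, a ligand of the EGF receptor, was at 249.1 and 375.7 units in HS and 146.8 and 226.6 with drug-loaded MNs, a log2 fold change of -0.74 (limma unadjusted p 0.0416, adjusted p 0.545). NFKBIA, the inhibitor that NF-kappaB induces against itself, was at 4262 and 5606 units in HS and 2137 and 3842 with drug-loaded MNs, a log2 fold change of -0.77 (adjusted p 0.599 in limma). In both genes the HS libraries lay above the drug-loaded MNs libraries. TIPARP, a gene induced by the aryl hydrocarbon receptor, had a log2 fold change of -0.65 with overlap. CCN1, a matricellular protein, was at 260.6 and 314.3 units in HS and 686.6 and 325.1 with drug-loaded MNs, so that its log2 fold change of 0.72 (adjusted p 0.672 in limma) came mainly from 1 library, and it was 0.18 without drug-loaded MNs replicate 1. Leaving out drug-loaded MNs replicate 1 took the list median to 0.043, and leaving out drug-loaded MNs replicate 2 took it to -0.31.

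ZFP36 itself was not analysed here, but 7 relatives and partners in mRNA decay were. Their median log2 fold change was -0.11, ranging from -0.23 to 0.13. ZFP36L1 and ZFP36L2, which like ZFP36 bind AU-rich elements and bring mRNAs to the CCR4-NOT deadenylase, were at 1166 and 1826 units and at 474.1 and 631.1 units in HS, and at 1159 and 1342 units and at 403.6 and 569.5 units with drug-loaded MNs. Both were highest in HS replicate 2, and both fold changes turned positive without it, to 0.097 and 0.016. MAPKAPK2, the kinase that phosphorylates ZFP36 downstream of p38, and HNRNPD, another AU-rich element binding protein, had log2 fold changes of -0.22 and -0.11, both with overlap. Leaving out HS replicate 2 took the list median to 0.079, and leaving out drug-loaded MNs replicate 1 took it to 0.046.

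Of 13 tested relatives of DUSP1 and other brakes on ERK signalling, 8 were lower and 5 higher, with a median of -0.17. DUSP10, a phosphatase of JNK and p38, was at 10.3 and 11.6 units in HS and 6.51 and 7.34 with drug-loaded MNs (log2 fold change -0.59, limma adjusted p 0.619). DUSP7, a phosphatase of ERK, was at 102.4 and 131.1 units in HS and 78.4 and 86.5 with drug-loaded MNs (log2 fold change -0.49, limma adjusted p 0.638). DUSP14 had a log2 fold change of -0.45 (adjusted p 0.733 in limma), and these 3 phosphatases were lower without overlap, as DUSP1 was. Over the 13 genes, 5 were lower and 3 higher without overlap, beside 11.2% lower and 26.6% higher over all tested genes. SPRED1, an inhibitor of Ras signalling, was higher in drug-loaded MNs at 68.1 and 48.5 units against 34.3 and 48.0 in HS, by a narrow gap (log2 fold change 0.49, limma adjusted p 0.722).

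The MAP kinases and ternary complex factors that induce these genes had a median of 0.071 over 17 genes, 10 higher and 7 lower. The median was near that of all tested genes (0.12). Without overlap, however, 5 of the 17 were lower and 1 higher, beside 11.2% lower and 26.6% higher over all tested genes. RPS6KA1, a kinase activated by ERK, was at 22.4 and 16.0 units in HS and 13.1 and 10.6 with drug-loaded MNs (log2 fold change -0.64, limma adjusted p 0.599). MAPK13 had a log2 fold change of -0.37 and MAPK14, which encodes p38 alpha, of 0.39, both without overlap and neither with an unadjusted p under 0.05 in limma. The sign of this list median depended on the library left out, with 0.25 without HS replicate 2 and -0.19 without HS replicate 1. It became -0.051 with median ratio scaling and -0.041 with quantile normalization. The median of all tested genes fell along with it, to -0.0010 and -0.020.

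Of 13 genes known as AP-1 targets, 5 could be tested, and they did not move together. TIMP1, the inhibitor of matrix metalloproteases, was at 285.6 and 169.7 units in HS and 828.1 and 457.2 with drug-loaded MNs, a log2 fold change of 1.48 (SE 0.36, limma unadjusted p 0.0039, adjusted p 0.316), which was 1.91 (adjusted p 0.0108 in limma) without drug-loaded MNs replicate 2. With any of the other 3 libraries left out it did not pass, at 1.05 to 1.85 (adjusted p 0.310 to 0.552 in limma). IL1B, an inflammatory cytokine, was at 19.0 and 16.6 units in HS and 47.6 and 26.2 with drug-loaded MNs, a log2 fold change of 0.95 (SE 0.32, limma unadjusted p 0.0198, adjusted p 0.435). In both the drug-loaded MNs libraries lay above the HS libraries. PLAU, the urokinase gene, had a log2 fold change of -0.33 with overlap. MMP3, or stromelysin 1, was at 10.2 and 0.215 units in HS and 0.575 and 0.837 with drug-loaded MNs, so that its log2 fold change of -1.12 rested on HS replicate 1. The median of the 5 genes was -0.33. Without HS replicate 1, MMP3 fell under the filter, and the median of the 4 genes left was 0.78. Fibroblasts, which express TIMP1, and macrophages, which express IL1B, were represented by markers that were also higher in drug-loaded MNs. All 6 tested fibroblast markers and all 7 tested macrophage markers were higher without overlap, as were 26.6% of all tested genes. No macrophage marker was listed at 0, but C1QB (0.065 and 1.66 units) and C1QA (1.31 and 0.868 units) were near the floor in HS. The macrophage sum was 122.0 to 126.5 units in HS and 272.0 to 277.4 with drug-loaded MNs. Their part in the levels of TIMP1 and IL1B was not tested.

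**Figure D4:**
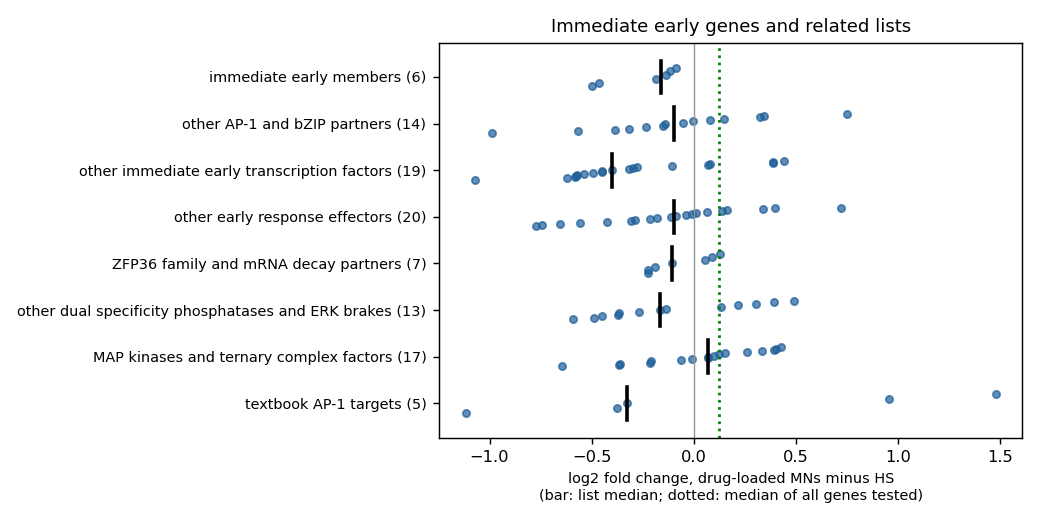
Log2 fold change of drug-loaded MNs over HS (x axis) for each tested gene of the 6 immediate early genes and the 7 related lists (y axis, number of tested genes in brackets), with a bar at each list median and a dotted line at the median of all tested genes (0.12). The 6 genes lie between -0.50 and -0.087, the other immediate early transcription factors have a median of -0.40, and TIMP1 lies far right at 1.48.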

How the data were processed

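The authors processed the reads with Cell Ranger 2.1.1, per the labels, filtered cells, counted unique molecular identifiers and used Seurat. The submitters' processing notes name the mouse build mm10, whereas the table carries rabbit Ensembl identifiers, and the annotation was not given in the sources used here. The deposited signal, 1 value per gene and library in a table named for FPKM, summed to 10000 in each column, and how cells were combined was not stated. The study also describes a batch correction across samples, and any such step in these values would have altered the differences given here. How doublets were treated was not stated. Of 893 to 1103 low values per library, only 18.7% to 21.6% lay within 0.1 of a whole multiple of the smallest value, so no reads were recovered and no count test was run.

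Each library was rescaled to 1000000 units, genes averaging under 1 unit were dropped, and limma 3.58.1 (lmFit, then eBayes with a trend) was run on log2(value + 1) under R 4.3.3, with 2 libraries per group and no covariate. The fold changes understate the change of low genes. P-values were two-sided and Benjamini-Hochberg adjusted over all 9348 genes. The fit was tested on simulated data. No library pair was identical. Whether same-numbered libraries were paired was checked from their deviations from the group means.

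The members and the gene lists were chosen with earlier results of these data known. All members in the table were named, and from each other list the 4 genes with the smallest unadjusted p, together with the 5 genes most like the members over the libraries. Of these, 2 genes are not reported here. EGR2, EGR4, NR4A1, NR4A2, NR4A3, KRT1, KRT5, KRT10, KRT14, DSC1, DSG1, TP63 and COL17A1 were named after their values were seen. Alternatives were 2 other normalizations (median ratio, quantile), a total that left out the 50 highest genes along with ribosomal protein and mitochondrial ones, a pseudocount of 0.1 or 5, a minimum mean of 5 units or none, a robust or an untrended eBayes, a block for the replicate number, and the omission of each library. Marker lists for 9 cell types served as descriptions. Gene length, positions and sequences were not used here.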

Additional observations from a re-analysis of the deposited data

How the results depend on the processing

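The 14 alternatives left all 6 immediate early genes above an adjusted p of 0.05 in limma. Of 84 values, 76 kept their direction, and the 8 that did not came from leaving out 1 library. With 1 library left out, where a group's single library takes its spread from the other group, log2 fold changes ranged from -0.39 to 0.025 for FOS, -0.44 to 0.17 for FOSL2, -0.84 to 0.61 for ATF3 and -0.54 to 0.37 for EGR1, and the median of the 6 from -0.61 to 0.097. JUN and DUSP1 kept their direction in all 14. Among other named genes the ranges crossed 0 for ZFP36L1 (-0.55 to 0.097), ZFP36L2 (-0.44 to 0.058), HNRNPD (-0.24 to 0.026), RAPGEFL1 (-0.83 to 0.17), TRAK1 (-0.54 to 0.082), CHD7 (-0.50 to 0.095) and FBXW7 (-0.30 to 0.041).

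The number of genes past the threshold over the whole table (4) was 0 with no filter, with a pseudocount of 5, with a total without abundant genes and under either other normalization (quantile or median ratio), 1 with an untrended eBayes, and 0 to 75 with 1 library left out. The cause was not tested. The median of all tested genes, 0.12, became -0.0010 with median ratio scaling, which by construction brings it near 0. The labels did not tie same-numbered libraries together beyond the number. Across the tested genes, the deviations of HS replicate 1 and drug-loaded MNs replicate 1 from their group means correlated at 0.222. With 2 libraries per group, the deviations of replicate 2 mirror those of replicate 1. Whether the libraries were paired could therefore not be told. A replicate block raised the number of genes past the threshold to 241, HES1 (adjusted p 0.0038) and TIMP1 (adjusted p 2.7e-05) passed, and the lowest adjusted p among the 6 genes was 0.326, for DUSP1.

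Median ratio scaling lowered the list medians along with the median of all tested genes given above. They were -0.23 for AP-1 and bZIP partners, -0.53 for other immediate early transcription factors and -0.30 for phosphatases and ERK brakes. The last was -0.305 under quantile normalization and -0.27 with a minimum mean of 5, which left 11 of its 13 genes. That minimum left 4 of the 5 AP-1 targets, with a median of 0.31, and the transcription factors had -0.32 with a pseudocount of 5. Leaving out 1 library gave list medians of -0.21 to 0.046 for AP-1 and bZIP partners, -0.39 to -0.22 for transcription factors, -0.31 to 0.043 for effectors, -0.24 to 0.079 for ZFP36 relatives, -0.23 to -0.093 for phosphatases and ERK brakes, -0.19 to 0.25 for MAP kinases and -0.48 to 0.78 for AP-1 targets, the last over 4 genes. The limits that depth sets could not be given without depths.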
